A study of Mus musculus with 19 samples.

Results

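To ask how transcripts that mark subtypes of spinal motor neuron behave over the day, 10 marker genes were followed in ribosome-bound mRNA of spinal cord cholinergic neurons. The 10 genes, of 50559 in the table, were taken by their symbols as markers of fast alpha (*Mmp9*, *Chodl*), all alpha (*Spp1*, *Rbfox3*), slow alpha (*Esrrb*, *Prkcd*) and gamma (*Esrrg*, *Gfra1*, *Htr1d*, *Wnt7a*) motor neurons. Samples came from WT 10-wk-old male C57BL/6J mice that carried *ChAT-Cre* and 1 floxed *RiboTag* allele (*ChAT-Cre*;*RiboTag* fx/+), kept in a 12-h light, 12-h dark cycle. In these mice Cre places a hemagglutinin tag on ribosomes wherever the choline acetyltransferase promoter is active, and mRNA is recovered from spinal cord homogenate by immunoprecipitation (IP) of the tag. Cords were collected at Zeitgeber time (ZT, hours after lights on) 0, 4, 8, 12, 16 and 20 with 3 biological replicates each, and pooled homogenate taken before precipitation (the input) gave 1 further library. All groups share the same genotype, and no untagged or Cre-negative control was analysed here. The tag is carried by every cholinergic cell of the cord, so visceral motor neurons and cholinergic interneurons contribute together with alpha and gamma motor neurons, and a lower level in such bulk RNA cannot be told apart as fewer cells of a type or less RNA per cell.

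Alpha motor neurons innervate the force-generating fibres of skeletal muscle. They are divided into fast and slow types by the fibres they drive, fast-fatigable units being the most vulnerable in amyotrophic lateral sclerosis. Gamma motor neurons innervate the intrafusal fibres of muscle spindles and set the sensitivity of stretch feedback. The markers encode proteins of varied function, among them secreted factors (*Spp1*, *Wnt7a*), a matrix protease (*Mmp9*), receptors (*Gfra1*, *Htr1d*) and nuclear receptors (*Esrrb*, *Esrrg*).

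The IP libraries held 6302140 to 22406850 counts and the input 15239783. Levels are given as CPM, counts scaled to a common library size by TMM, a scaling of edgeR that assumes most genes do not change. All 10 markers passed the expression filter, as did 15572 genes in all. The IPs carried the tagged cell type: summed CPM of 7 cholinergic genes lay between 4206 and 5024 in the IPs and at 450 in the input, and 6 of the 7 were enriched. The exception, *Chat*, ranged from 8.30 to 84.8 CPM and exceeded the input in 17 of 18 IPs. Markers of oligodendrocytes (7 genes), astrocytes (6), microglia (6) and endothelial cells (4) were all depleted, although the oligodendrocyte genes still summed to 1501 to 2874 CPM against 21321 in the input. Of 4 visceral motor neuron genes 3 were depleted, with *Nos1* at 85.2 CPM the exception. Libraries of 1 time point did not always lie together. On the first principal component (52.8% of the variance) the ZT8 replicates scored 5.03, 42.6 and 29.7, and the ZT16 replicates −20.1, −27.9 and 2.81. ZT8 replicate 1 and ZT16 replicate 3 thus lay nearer to each other than to the rest of their groups. Calls of the 10 markers that change without either of them are given with the comparisons. Calls of the other gene lists were not followed in fits that left out libraries.

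Relative to the input, 6 of the 10 markers were enriched and none depleted. Enrichment here meant a mean at least 2-fold above the input with all 18 IPs above it, and there was no test since there was 1 input library. Among all genes, 13.4% of 17901 genes compared were enriched and 23.3% depleted. The median log2 ratio was 1.31 over the markers and −0.12 over all genes.

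The highest ratios were those of *Chodl*, *Spp1* and *Mmp9*. *Chodl*, encoding the C-type lectin-related membrane protein chondrolectin, measured 372 ± 46.2 CPM (SD, n = 18) in the IPs and 32.8 CPM in the input (95% Poisson interval 30.3 to 35.5, for counting error only), a log2 ratio of 3.50 that ranked 56 of 17901. *Spp1*, encoding the secreted glycoprotein osteopontin, measured 865 ± 65.2 CPM against 113, a log2 ratio of 2.94. Osteopontin is also made by microglia, of which 6 marker genes together summed to 8.33 to 15.3 CPM in the IPs and 162 CPM in the input. The part of RNA from microglia or other cells in the *Spp1* level was not tested. *Mmp9*, encoding a gelatinase of the extracellular matrix and a marker of fast-fatigable units, measured 57.5 ± 14.6 CPM against 12.4, a log2 ratio of 2.21. *Rbfox3*, the splicing factor known as NeuN that is low in gamma motor neurons but present in most other neurons, did not reach the threshold, with 179 ± 17.5 CPM against 128 (log2 ratio 0.48) and all 18 IPs above the input.

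Of the slow alpha markers 1 was enriched. *Esrrb*, encoding an orphan nuclear receptor, was enriched at 28.9 ± 2.62 CPM against 11.1, a log2 ratio of 1.38. *Prkcd*, encoding protein kinase C delta, measured 44.7 ± 3.65 CPM against 23.6. Its log2 ratio of 0.92 lay just under the 2-fold limit, with all 18 IPs above the input.

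The gamma markers ranged from enriched to below the input. *Gfra1*, the receptor subunit that binds GDNF, was enriched at 140 ± 21.9 CPM against 53.0 (log2 ratio 1.40). *Htr1d*, a serotonin receptor, was enriched at 11.5 ± 3.12 CPM against 4.82 (interval 3.88 to 5.92; log2 ratio 1.25). *Wnt7a*, a secreted Wnt ligand, measured 11.9 ± 2.11 CPM against 11.1 (interval 9.67 to 12.7), with 11 of 18 IPs above the input and 7 below. *Esrrg*, encoding a nuclear receptor related to *Esrrb*, measured 38.9 ± 11.8 CPM against 56.1 (interval 52.8 to 59.6), and 16 of 18 IPs lay below the input (log2 ratio −0.53). When libraries were instead scaled by their totals, this moved the median ratio of all genes from −0.12 to −0.43 and left 5 markers enriched, *Htr1d* falling under the limit at 0.94 and *Wnt7a* changing sign to −0.22.

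**Figure D1:**
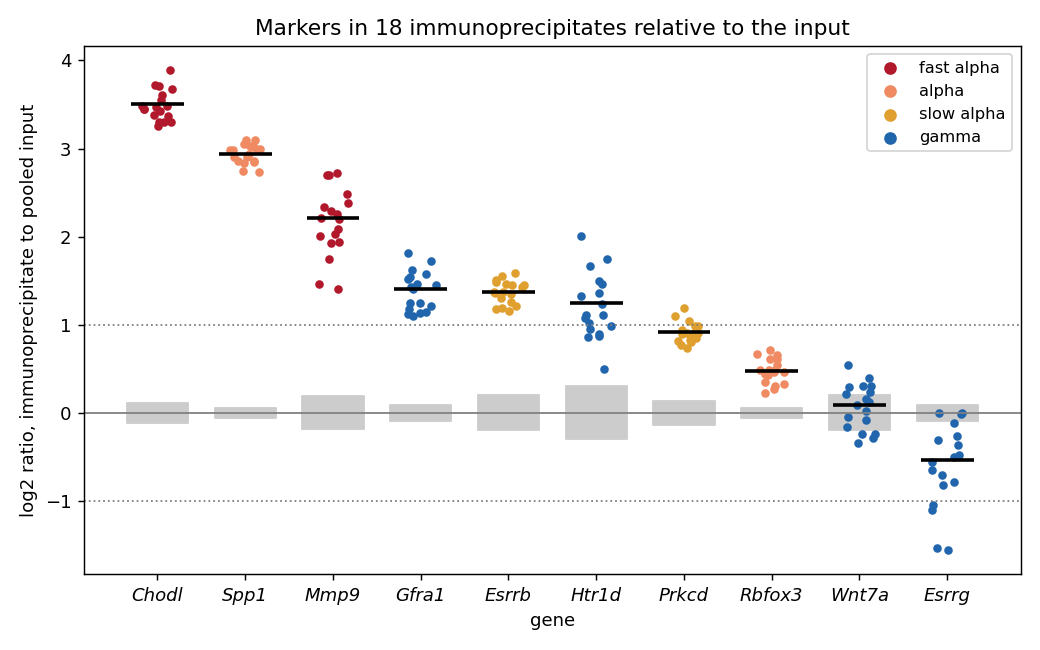
Log2 ratio of each of the 18 IPs (points, coloured by subtype) to the pooled input for the 10 markers (x axis), with the log2 ratio of the mean as a bar, the 95% Poisson interval of the input in grey and the 2-fold limits dotted. *Chodl*, *Spp1* and *Mmp9* lie above 1 in every IP, whereas *Wnt7a* straddles 0 and most *Esrrg* points lie below it.

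Levels per kb of exon (the union of GENCODE exons) allowed the genes to be ordered. *Spp1* stood first at 525 ± 39.6 CPM per kb and *Chodl* second at 67.7 ± 8.41, both above the next gene in all 18 IPs without overlap of ranges. *Rbfox3* (30.7 ± 3.00), *Gfra1* (25.6 ± 3.99) and *Mmp9* (16.2 ± 4.13) followed, each above the next gene within every IP although the ranges overlapped across IPs. The order was less sharp below these. *Prkcd* (8.06 ± 0.66) exceeded *Esrrg* (6.27 ± 1.90) in 15 of 18 IPs, *Esrrg* exceeded *Esrrb* (4.78 ± 0.43) in 14, and *Esrrb* exceeded *Wnt7a* (3.75 ± 0.66) in 17. *Wnt7a* and *Htr1d* (3.59 ± 0.97) could not be ordered, *Wnt7a* being the higher in 8 of 18 IPs.

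In the median the markers varied less between animals of 1 time point than all genes tested. Their edgeR coefficient of variation within a time point had a median of 11.3% against 17.5% over all genes tested. It was lowest for *Spp1* (9.48%), *Rbfox3* (9.86%), *Chodl* (9.96%) and *Prkcd* (10.0%), and highest for *Htr1d* (17.5%) and *Esrrg* (20.6%, percentile 58.2 of all genes). The 2 sets were not matched by level: in mean CPM the markers lay from percentile 46.7 (*Htr1d*) to 99.2 (*Spp1*).

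Over the day, markers of the same subtype differed in shape. *Mmp9* had its lowest mean at ZT8 (38.3 CPM) and its highest at ZT16 and ZT0 (70.8 and 70.5), with 57.8 at ZT12 and 58.6 at ZT20. The means of 2 gamma markers, *Esrrg* and *Gfra1*, were likewise lowest at ZT8 and highest at ZT16 and ZT0. *Gfra1* was nearly as low at ZT4 (123 CPM) as at ZT8 (119). By contrast the fast alpha marker *Chodl* and the gamma marker *Htr1d* had their highest mean at ZT8. *Spp1*, *Rbfox3*, *Esrrb*, *Prkcd* and *Wnt7a* passed no test over time.

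**Figure D2:**
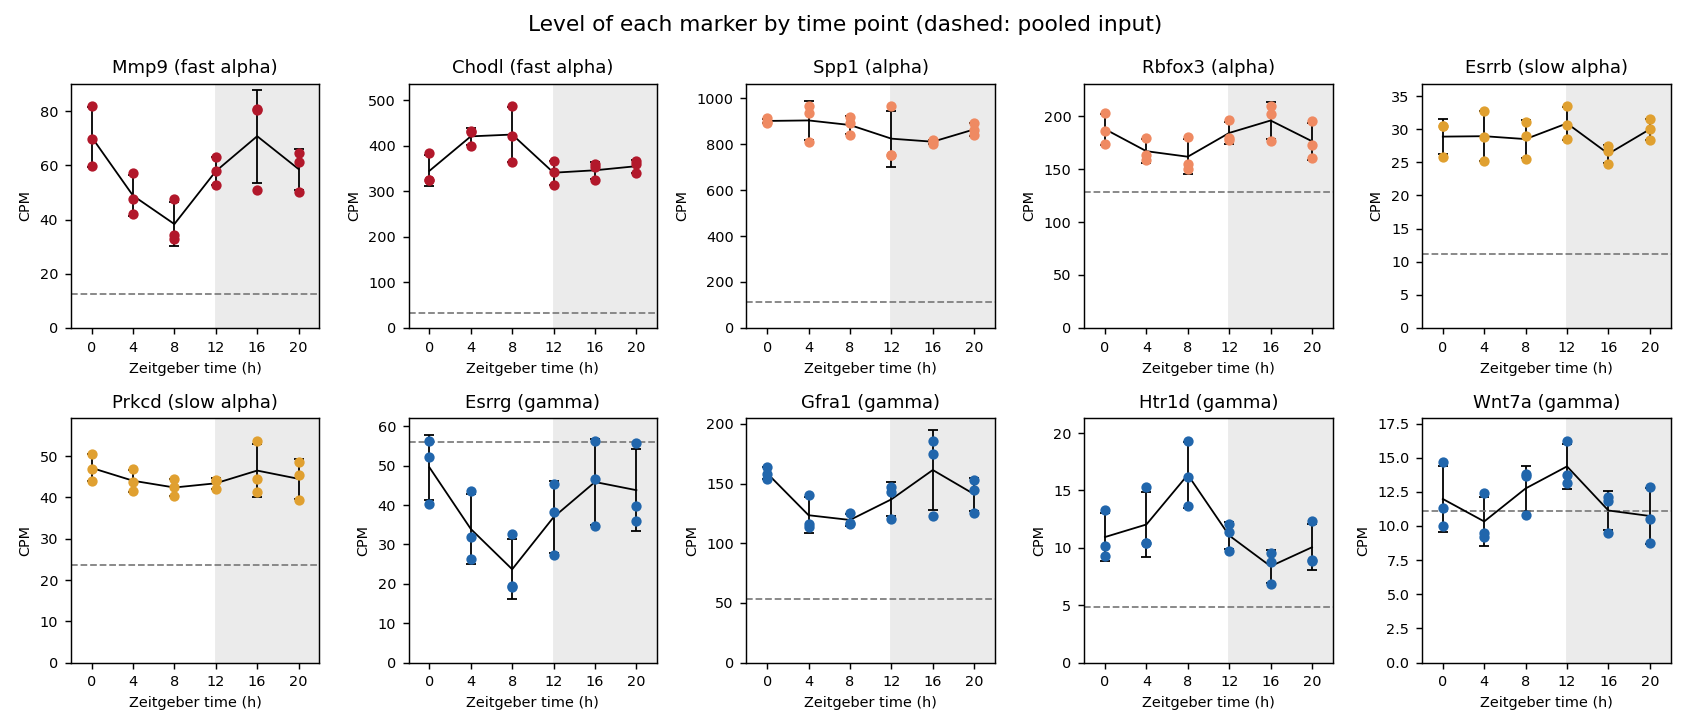
CPM (y axis, from 0) of each marker by Zeitgeber time in h (x axis), with each of 3 IPs per time point as a point, the mean and SD as a black line and bars, the pooled input dashed and the dark phase shaded. *Mmp9*, *Esrrg* and *Gfra1* dip at ZT8 where *Htr1d* peaks, and *Spp1* and *Esrrb* stay near their means.

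In the light phase the 3 animals measured 82.0, 59.7 and 69.8 CPM of *Mmp9* at ZT0, then 57.2, 41.9 and 47.4 (ZT4) and 47.7, 34.3 and 33.0 (ZT8). In the dark phase they measured 52.7, 63.0 and 57.8 CPM (ZT12), 80.8, 80.6 and 50.9 (ZT16) and 61.1, 64.7 and 50.1 (ZT20). All ZT8 values lay below all values of ZT0, ZT12, ZT16 and ZT20. ZT16 replicate 3 stood apart from the other ZT16 animals.

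*Esrrg* stood at 52.1, 40.3 and 56.3 CPM in the ZT0 animals, 43.6, 26.2 and 32.0 in those of ZT4 and 32.5, 19.5 and 19.1 in those of ZT8. Its dark-phase values were 27.3, 45.3 and 38.2 CPM (ZT12), 46.7, 56.2 and 34.6 (ZT16) and 55.6, 39.8 and 35.9 (ZT20). The ZT8 values lay below all values of ZT0, ZT16 and ZT20, while ZT12 replicate 1 fell within their range. *Gfra1* levels were 164, 154 and 158 CPM (ZT0), 126, 116 and 117 (ZT8) and 175, 186 and 123 (ZT16). Its ZT0 and ZT8 groups did not overlap, but ZT16 replicate 3 lay among the ZT8 values.

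*Htr1d* ran the other way, with 9.32, 13.3 and 10.2 CPM (ZT0), 13.6, 19.3 and 16.1 (ZT8) and 6.83, 9.58 and 8.78 (ZT16). Every ZT8 value exceeded every value of ZT0 and ZT16. *Chodl* levels were 325, 325 and 384 CPM (ZT0), 430, 432 and 399 (ZT4), 365, 487 and 420 (ZT8) and 354, 325 and 359 (ZT16), so all ZT4 values lay above all ZT0 and ZT16 values, whereas ZT8 replicate 1 overlapped the ZT0 group.

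The remaining markers passed no test over time. Means at the 6 time points ran from 811 to 904 CPM for *Spp1*, from 26.3 to 30.9 for *Esrrb*, from 42.4 to 47.2 for *Prkcd* and from 10.3 to 14.4 for *Wnt7a*. For *Rbfox3* the means ran from 162 CPM at ZT8 to 196 at ZT16.

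**Figure D3:**
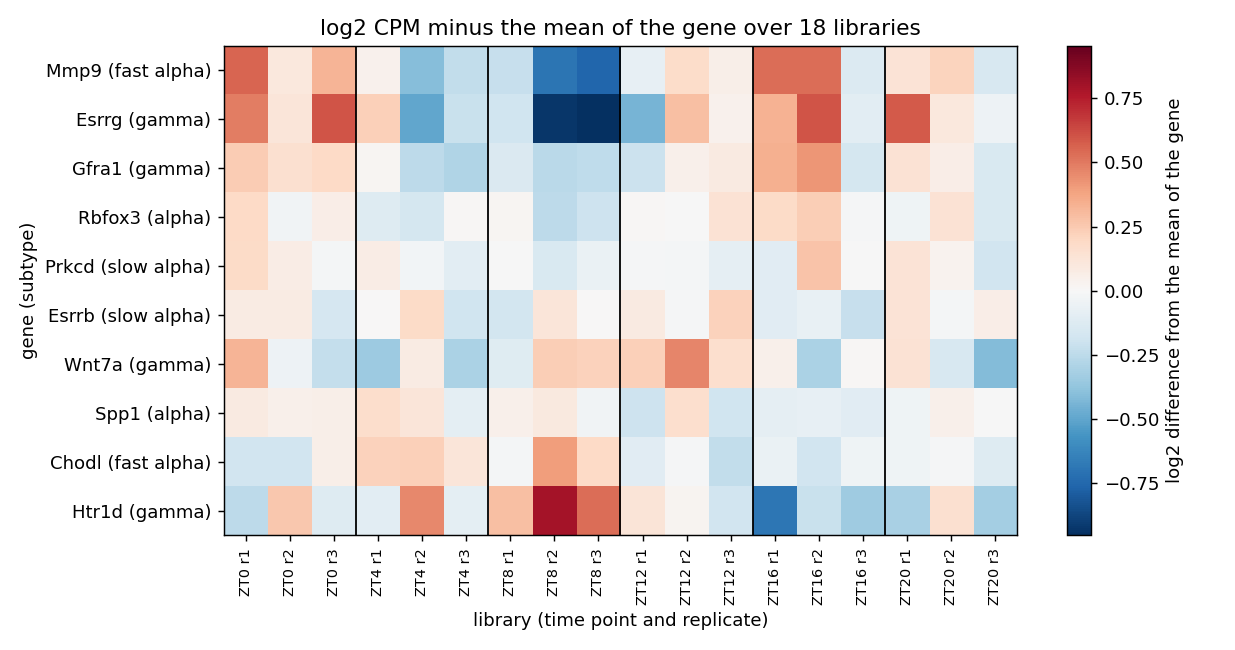
Log2 CPM of each marker (rows) in each of the 18 IPs (columns, ordered by time point and replicate) as the difference from the mean of the gene, from blue (lower) to red (higher). *Mmp9*, *Esrrg* and *Gfra1* are low and *Htr1d* and *Chodl* high in ZT8 replicates 2 and 3, and ZT8 replicate 1 is paler than both.

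Rhythmicity was tested first with JTK_Cycle, a rank test against cosine curves of 20, 24 and 28 h. After adjustment over all genes it called none of the markers and 6 of 15572 genes (0.0385%), the lowest adjusted p among the markers being 0.148 for *Htr1d*. With the p adjusted within the gene alone, 5 markers were under 0.05, where 15.8% of all genes were. These were *Htr1d* (p = 0.0122), *Mmp9* (0.0181), *Esrrg* (0.0264), *Chodl* (0.0377) and *Gfra1* (0.0377), by the permutation null of the ranks over the 18 IPs. The best curve of all 5 was one of 20 h, not 24 h, and the samples cover a single day. A 24-h cosinor, a cosine curve fitted to the counts with the quasi-likelihood test of edgeR, called 2 markers, where it called 6.24% of all genes (2.91% with a peak from ZT12 to ZT24 and 3.33% with a peak from ZT0 to ZT12). *Esrrg* had a log2 amplitude of 0.44 with a peak at ZT20.0 (edgeR adjusted p = 0.0487), and *Htr1d* an amplitude of 0.36 with a peak at ZT6.42 (adjusted p = 0.0458). *Mmp9* had an amplitude of 0.36 and a peak at ZT19.3 but did not pass (adjusted p = 0.0511). Both calls were close to the threshold: *Esrrg* stayed under it in 7 and *Htr1d* in 4 of the 18 fits that each left out 1 IP. Over all genes the cosinor called 2 to 2668 in these fits, against 972 with all IPs. Without ZT16 replicate 3, *Mmp9* and *Gfra1* passed both JTK_Cycle (adjusted p = 0.0432 for each) and the cosinor (edgeR adjusted p = 0.0337 and 0.0469), and *Htr1d* lost its cosinor call (0.0536). In that fit JTK_Cycle called 754 genes and the cosinor 1546. Without ZT8 replicate 1 *Htr1d* lost its cosinor call as well (0.0552), where the cosinor called 1120 genes.

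A test of any difference among the 6 time points called 1 marker, *Mmp9* (edgeR adjusted p = 0.0299), where it called 6.74% of all genes. The lowest values among the others were 0.0564 for *Esrrg* and 0.0568 for *Htr1d*. In 7 of the 18 fits that each left out 1 IP this test called no marker, so *Mmp9* lost its call there (without ZT0 replicate 1 or 3, ZT4 replicate 2, ZT8 replicate 2 or 3, or ZT16 replicate 1 or 2). In these 7 fits the calls over all genes ran from 5 to 428, against 1049 with all IPs.

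To compare the middle of the light phase with dawn, ZT8 was set against ZT0 in the same edgeR fit. Of the 10 markers, 3 were lower and 1 higher at ZT8, where the test called 18% of all genes and 9.02% of all genes were lower and 8.95% higher. *Mmp9* fell by 0.88 on the log2 scale (SE 0.18, edgeR adjusted p = 0.00638). *Esrrg* fell by 1.07 (SE 0.24, adjusted p = 0.00842) and *Gfra1* by 0.41 (SE 0.13, adjusted p = 0.0377). *Chodl* rose by 0.30 (SE 0.10, adjusted p = 0.0498). *Htr1d* differed by 0.59 (SE 0.21) but missed the threshold (adjusted p = 0.0527). The *Mmp9* call held in all 18 fits that left out 1 IP, with a highest adjusted p of 0.0483. That of *Esrrg* was lost without ZT8 replicate 2 (0.0642). *Gfra1* lost its call without any 1 ZT0 replicate or without ZT8 replicate 2 or 3 (0.0568 to 0.125), and *Chodl* lost its in 16 of the 18 fits (up to 0.333), that without ZT16 replicate 3 among them (0.0601). Without ZT8 replicate 1, *Htr1d* (0.69, adjusted p = 0.0287) and *Rbfox3* (−0.32, 0.0437) were called too. Calls over all genes, 2798 with all IPs, moved as well. They were 639, 2449 and 1129 without ZT0 replicates 1, 2 and 3, and 3031 without ZT16 replicate 3. Without ZT8 replicates 1, 2 and 3 they were 4010, 274 and 1114.

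Some of the 7 cholinergic neuron genes changed between the same time points. Of the 7, 4 were lower and none higher at ZT8 against ZT0, namely *Chat* (−1.74, edgeR adjusted p = 0.0115), *Slc18a3* (−0.92, 0.0113), *Ache* (−0.65, 0.0292) and *Slc5a7* (−0.64, 0.0158). Not called were *Isl1* (−0.39, 0.153), *Mnx1* (0.10, 0.632) and the most abundant, *Prph* (0.32, 0.0508), the last 2 with the opposite sign. The summed level of the 7 averaged 4579 CPM at ZT0 and 4400 at ZT8. At ZT16 against ZT8, 5 of the 7 were higher and none lower, *Isl1* being the fifth. Over all genes 9.02% were lower at ZT8 against ZT0 and 9.11% higher at ZT16 against ZT8. Of 4 inhibitory neuron genes 2 were lower at ZT8 against ZT0, *Gad2* (−0.54, adjusted p = 0.0129) and *Slc32a1* (−0.62, 0.0380), and of 7 oligodendrocyte genes 2 were lower at ZT8 than at ZT0 and 2 higher at ZT16 than at ZT8. The part of these shifts in the marker changes was not tested.

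To compare early night with mid-day, ZT16 was set against ZT8. This comparison shares its ZT8 libraries with the previous one, so the opposite signs of the 2 sets of values are not independent. At ZT16, 3 markers were higher and 1 lower, where the test called 16.9% of all genes and 9.11% of all genes were higher and 7.8% lower. *Mmp9* rose by 0.89 (SE 0.18, edgeR adjusted p = 0.00703), *Esrrg* by 0.96 (SE 0.24, adjusted p = 0.0133) and *Gfra1* by 0.43 (SE 0.13, adjusted p = 0.0298). *Htr1d* fell by 0.96 (SE 0.21, adjusted p = 0.00855). *Chodl* differed by −0.30 (SE 0.10) without passing the test (adjusted p = 0.0552). All 4 calls were lost without ZT8 replicate 2 (adjusted p 0.0559 for *Mmp9*, 0.0860 for *Esrrg*, 0.114 for *Gfra1* and 0.0655 for *Htr1d*) and without ZT16 replicate 2 (0.0534, 0.0922, 0.188 and 0.0527). The calls over all genes in these fits were 87 and 72, against 2633 with all IPs. *Esrrg* and *Gfra1* also lost theirs without ZT8 replicate 3 (0.0706 and 0.0927), and *Gfra1* without ZT16 replicate 1 (0.117). These fits called 967 and 892 genes. *Rbfox3* gained a call without ZT8 replicate 1 (0.38, adjusted p = 0.0195) and without ZT16 replicate 3 (0.35, 0.0317), and *Chodl* without ZT8 replicate 1 (−0.38, 0.0119). Calls over all genes there were 3885 without ZT8 replicate 1 and 3409 without ZT16 replicate 3. Oligodendrocyte marker sums averaged 2006 ± 192 CPM at ZT0, 1848 ± 132 at ZT8 and 2250 ± 540 at ZT16 (SD, n = 3). With a score of these genes as a covariate, *Mmp9* alone of the markers was called between ZT16 and ZT8 (0.94, edgeR adjusted p = 0.0410), and the calls over all genes went from 2633 to 339. The log2 fold changes that lost their call were 0.90 for *Esrrg* (adjusted p = 0.0733), 0.53 for *Gfra1* (0.0605) and −0.77 for *Htr1d* (0.0783).

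**Figure D4:**
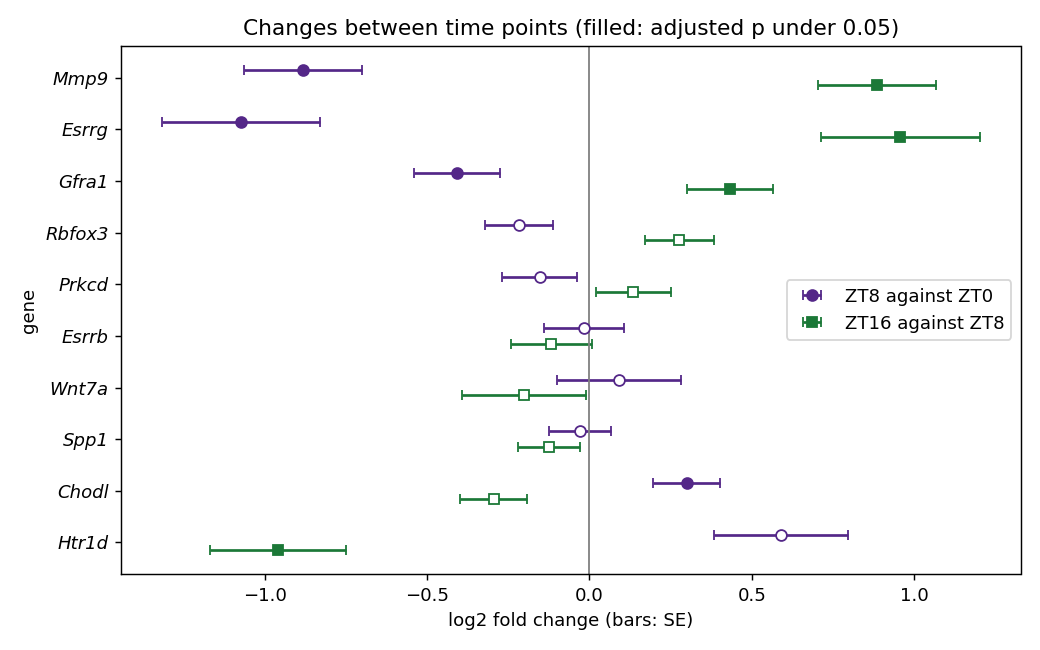
Log2 fold change (x axis) with its SE for each marker (y axis) at ZT8 against ZT0 (purple circles) and ZT16 against ZT8 (green squares), from the edgeR fit, filled where the adjusted p is under 0.05. The values of *Mmp9*, *Esrrg* and *Gfra1* are negative in the first comparison and positive in the second, and those of *Chodl* and *Htr1d* are the reverse.

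For ZT20 against ZT8, 12 h apart, edgeR called none of the markers and none of the 15572 genes (0%), although 4 markers and 3475 genes had an unadjusted p under 0.05. DESeq2 called 1114 genes, among them 3 markers, namely *Esrrg* (log2 fold change 0.88, DESeq2 adjusted p = 0.0142), *Mmp9* (0.61, 0.0247) and *Htr1d* (−0.69, 0.0339). By edgeR, *Esrrg* and *Mmp9* passed without ZT16 replicate 3 (adjusted p = 0.0438 and 0.0416), and 4 markers without ZT8 replicate 1. The calls over all genes in these fits were 578 and 2318. In the other 12 pairs of time points none of the markers was called by edgeR, where it called 0% to 0.0642% of all genes (0.0321% for ZT12 against ZT0 and 0.0642% for ZT16 against ZT4). Up to 5 markers had an unadjusted p under 0.05 in a pair, namely for ZT16 against ZT4, where 3159 of 15572 genes did. For ZT4 against ZT0 and ZT12 against ZT8 there were 4 markers each, beside 3111 and 3275 genes in all.

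Ratios of 2 markers within a library do not depend on how libraries are scaled. They are described here without a test, the pairs having been chosen after their values were seen. The log2 count ratio of *Mmp9* to *Chodl*, both fast alpha markers, averaged −2.30 ± 0.27 at ZT0 (SD, n = 3), −3.48 ± 0.48 at ZT8 and −2.32 ± 0.43 at ZT16. That of *Gfra1* to *Htr1d*, both gamma markers, averaged 3.87 ± 0.31, 2.88 ± 0.31 and 4.26 ± 0.44. In both pairs the ZT8 libraries had the lowest mean ratio of the 6 time points. The ratio of *Esrrg* to its paralog *Esrrb* averaged 0.77 ± 0.36, −0.31 ± 0.57 and 0.78 ± 0.28.

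Across the 18 IPs, which share library preparation and scaling, *Mmp9* varied with *Esrrg* (Pearson r of log2 CPM 0.92), *Gfra1* (0.90) and *Rbfox3* (0.85). After subtraction of the time point means these values were 0.84, 0.84 and 0.77. *Mmp9* and *Chodl* had an r of −0.67, and *Mmp9* and *Htr1d* of −0.74, which were −0.27 and −0.43 after the same subtraction. All of these are descriptions over 18 IPs. By this measure the genes most like each marker were *Eno2* and *Slc25a12* for *Mmp9* (both 0.97), *Actr3* (0.94) and *Nek7* (0.91) for *Chodl*, *Cacna2d3* and *Kcnip1* for *Esrrg* (both 0.96), and *Lmbrd1* (0.96) and *Akap12* (0.95) for *Gfra1*. *Rbfox3* was nearest to *Gaa* and *Vps52* (both 0.95) and *Htr1d* to *Farsb* (0.89) and *Celsr2* (0.88). Correlations with the nearest genes were lower for the other markers, namely *Leo1* (0.82) and *Tigar* (0.80) for *Spp1*, *Lipa* (0.80) and *Arhgap26* (0.78) for *Prkcd*, *4833415N18Rik* and *Arhgef7* for *Esrrb* (both 0.74), and *Acacb* and *Tnfaip8* for *Wnt7a* (both 0.70).

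Further subtype markers were taken from a list of 11 genes, all tested. Of these 4 were enriched over the input, namely *Calca* (log2 ratio 3.50), *Vipr2* (2.57), *Sv2b* (1.41) and *Plch1* (1.02), and 2 depleted, *Sv2a* (−1.44) and *Pard3b* (−2.11). Over all genes compared, 13.4% were enriched and 23.3% depleted. At ZT8 against ZT0, 5 of the 11 were lower and none higher, where 9.02% of all genes were lower and 8.95% higher. Among the 5 were *Stk32a* (−1.29), *Vipr2* (−0.89), *Sv2a* (−0.81) and *Dlk1* (−0.61), with edgeR adjusted p from 0.00870 to 0.0142. At ZT16 against ZT8, 4 were higher, namely *Stk32a* (1.30), *Vipr2* (0.95), *Sv2a* (0.86) and *Dlk1* (0.46), and none lower. Over all genes 9.11% were higher and 7.8% lower there. *Vipr2*, the receptor for vasoactive intestinal peptide, passed the cosinor with an amplitude of 0.53 and a peak at ZT19.2 (edgeR adjusted p = 0.0373) as well as the test among time points (0.0198). The median over the list was −0.21 at ZT8 against ZT0, where it was −0.09 over the 10 markers and −0.00298 over all genes. Whether calls of this list and of the next hold without single libraries was not tested.

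Partners and paralogs of the markers formed a list of 32 genes, of which 30 were tested over time and 31 compared with the input. Relative to the input 3 were enriched and 15 depleted, where 13.4% and 23.3% of all genes compared were. *Ret*, the signalling partner of the GDNF receptor encoded by *Gfra1*, was enriched (456 ± 75.9 CPM, log2 ratio 1.90) and fell by 0.43 at ZT8 against ZT0 (edgeR adjusted p = 0.0482). *Ncam1*, an alternative co-receptor, fell by 0.51 there and rose by 0.54 at ZT16 against ZT8 (adjusted p = 0.00899 and 0.00883). The ligand gene *Gdnf* averaged 0.0601 CPM in the IPs and was not tested.

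Among relatives of the nuclear receptors, *Esrra* was enriched (log2 ratio 1.64) and rose by 0.38 at ZT8 against ZT0 (edgeR adjusted p = 0.0357), opposite in sign to *Esrrg*. The coactivator gene *Ppargc1a* passed the cosinor (peak ZT7.14, adjusted p = 0.0416) and fell by 0.44 at ZT16 against ZT8 (0.0470). The paralogs of *Prkcd* that passed differed in sign, *Prkce* rising by 0.74 and *Prkch* falling by 1.43 at ZT8 against ZT0, with edgeR adjusted p of 0.00585 and 0.00956. They reversed at ZT16 (−0.78 and 1.47, adjusted p = 0.00663 and 0.00922), and both passed the cosinor and the test among time points, whereas *Prkcd* itself passed none. *Rbfox1*, a paralog of *Rbfox3*, fell by 0.41 at ZT8 and rose by 0.46 at ZT16, and the *Spp1* receptor gene *Itgb1* fell by 0.48 and rose by 0.47. *Layn*, related to *Chodl*, was enriched at a log2 ratio of 2.57 and passed no test over time. In all, 2 of the 30 were higher and 5 lower at ZT8 against ZT0, where 8.95% and 9.02% of all genes were. At ZT16 against ZT8, 4 of the 30 were higher and 2 lower, where 9.11% and 7.8% of all genes were. The inhibitors of *Mmp9* were not called over time, *Timp2* being the most abundant at 561 ± 38.2 CPM.

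In RefSeq on GRCm38.p6 (mm10) all 10 markers are protein-coding genes. *Mmp9* lies at chr2:164940326-164955850 on the plus strand and *Chodl* at chr16:78930841-78951736 on the plus strand. *Esrrg*, at chr1:187608510-188214885, is the longest at 606 kb, and *Spp1*, at chr5:104435111-104441053, the shortest at 5.94 kb. *Gfra1* lies at chr19:58235581-58455946 on the minus strand and *Htr1d* at chr4:136423522-136444405 on the plus strand. Exons of *Gfra1* overlap the antisense gene *Gm16277* over 416 bp and those of *Spp1* overlap *Gm42793* over 309 bp. Neither of these genes was analysed here, and reads of the overlaps cannot be assigned.

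Promoters of 9 of the 10 markers were matched by symbol in a RefSeq table of 32851 windows from 250 bases before to 50 after each start. They were searched on both strands for the E-box CACGTG bound by clock activators, the D-box TTATGTAA, the estrogen-related receptor element TCAAGGTCA and its shorter form AAGGTCA (which is contained in the longer one). The E-box occurred in 7.15% of all windows and in those of 1 marker, *Prkcd*, which passed no test over time. The D-box (0.938% of all windows), TCAAGGTCA (0.423%) and AAGGTCA (4.72%) occurred in none of the 9. Shown first is the *Prkcd* match with the E-box in capitals, beginning 106 bases before the listed start (chr14:30626297-30626326, minus strand). Shown next are the 100 bases before the listed start of *Chodl* (chr16:78930848-78930947, plus strand) and *Gfra1* (chr19:58455399-58455498, minus strand). These genes changed in opposite directions between ZT0 and ZT8 and each has 1 start in the table. Both stretches lie within the gene spans given above, so the gene as annotated begins further out. The *Prkcd* match likewise lies within its gene (chr14:30595353-30626414). Capitals in *Chodl* mark TATA, here in 2 overlapping copies, which 15.2% of all such 100-base stretches hold.
Prkcd E-box: ggacccccagctCACGTGggcggagcttcg
Chodl upstream: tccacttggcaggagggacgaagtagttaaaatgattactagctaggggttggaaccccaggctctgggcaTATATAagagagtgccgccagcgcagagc
Gfra1 upstream: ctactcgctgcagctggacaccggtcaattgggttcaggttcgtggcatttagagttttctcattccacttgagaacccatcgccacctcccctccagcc
The *Chodl* and *Gfra1* stretches hold 53% and 55% G and C and differ in the TATA letters, which *Gfra1* lacks. Of the 16 such stretches of the markers 3 hold TATA. Those other than *Chodl* belong to *Esrrg*, which fell at ZT8 against ZT0 as *Gfra1* did. Such matches describe these letters only.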

How the data were processed

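The deposited table held expected counts per gene, which the authors made with STAR 2.7.5 on mm10 and RSEM without normalization (paired-end reads of a stranded kit; the strand setting of RSEM is not given in the sources used here). RSEM shares reads that fit several genes between them, so values of paralogs and overlapping genes are less certain. Each IP came from 1 spinal cord, and all samples were processed on the same day per the study's methods. All value columns were mapped to samples by name.

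Counts were rounded, filtered with filterByExpr and scaled by TMM in edgeR 4.0.16 (R 4.3.3). Log2 CPM carried a prior count of 2. Quasi-likelihood tests (24-h cosinor, any time point difference, pairs of time points) were fitted on all 18 IPs and all 15572 genes with Benjamini-Hochberg adjustment at 0.05, and standard errors were taken from the F statistic. JTK_Cycle used 18 templates of 20, 24 and 28 h, with Bonferroni adjustment within a gene. The input was compared as ratios, with a floor of 3 counts for genes at 0. Exact 95% Poisson intervals cover counting error only, since reads carry no molecular identifiers. Total counts of 6302140 to 22406850 per IP gave the markers at least 57 counts each. Scripts were tested on simulated data.

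The text names all 10 markers, the members of the other lists that any test called (otherwise the most abundant), and the 2 genes most correlated with each marker. Of the further subtype markers, 1 is counted but not reported by name here. The markers, lists and tests were chosen with earlier results of these data known. Alternatives were DESeq2 1.42.0, its size factors, library totals, upper-quartile scaling, filters of 10 and 1 counts, a replicate block, an oligodendrocyte score, JTK_Cycle with adjustment within the gene alone or with only the 24-h period, and leaving out libraries.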

Additional observations from a re-analysis of the deposited data

How the results depend on the processing

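Of the 10 markers, 6 were enriched and none depleted under every leave-out of an IP or replicate number. Over all genes 2392 to 2522 were enriched in these fits (2401 with all IPs) and 4135 to 4318 depleted (4174). The single input was in every fit, so these fits cannot show how the counts depend on it. The counts of markers called over time varied with the setting. The counts over all genes moved as well and are given in brackets. With a minimum of 10 counts in total the time point test called 2 (1371 genes, against 1049). With a minimum of 1 count the cosinor called 4 (2349 genes, against 972), the time point test 4 (2767) and the pair ZT20 against ZT8 gave 3 (1641, against 0). DESeq2 called 5 by the cosinor (2312), 5 by the time point test (2502) and 3 between ZT20 and ZT8 (1114). With the oligodendrocyte score the cosinor called 0 (2) and the time point test 0 (0). In the same setting ZT16 against ZT8 gave 1 (339, against 2633) and ZT8 against ZT0 gave 3 (1905, against 2798). Adjustment within the gene alone gave 5 by JTK_Cycle (2462, against 6). Leaving out each IP or replicate number in turn (21 fits) gave 0 to 2 by JTK_Cycle (0 to 754), 0 to 4 by the cosinor (0 to 2668) and 0 to 4 by the time point test (0 to 2453). For the pairs it gave 0 to 6 for ZT8 against ZT0 (0 to 4010), 0 to 6 for ZT16 against ZT8 (0 to 3885) and 0 to 4 for ZT20 against ZT8 (0 to 2318). The count of 0 for both ZT8 against ZT0 and ZT16 against ZT8 came without replicate number 2, a fit with 12 IPs in which the calls over all genes were also 0. Without ZT8 replicate 1, *Mmp9*, *Chodl*, *Esrrg* and *Htr1d* passed for ZT20 against ZT8 (adjusted p 0.00871, 0.0325, 0.00504 and 0.0231). That fit called 2318 genes in all for this pair. *Chodl* at ZT8 against ZT0 lost its call under library totals (0.0921), upper-quartile scaling (just above 0.05), both count minimums (0.0764 and 0.0950) and the oligodendrocyte score (0.134). The cause of these changes was not tested.

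With the replicate number as a block, JTK_Cycle called 1 (*Htr1d*, adjusted p = 0.0353; 356 genes in all), the cosinor 1 (774) and the time point test 3 (1004), and counts for the pairs of time points stayed within 1.5 times. The numbers did not pair the samples: correlations of deviations from the time point means ran from −0.52 to 0.59 between libraries of the same number (median 0.07, 18 of 45 over 0.1) and from −0.55 to 0.53 between others.

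Apart from the ratio of *Wnt7a* to the input under library totals (−0.22), signs changed only when libraries were left out and only where no call was made. The log2 fold changes ran from −0.10 to 0.0803 for *Esrrb*, −0.0797 to 0.35 for *Wnt7a* and −0.0759 to 0.00273 for *Spp1* at ZT8 against ZT0. They ran from −0.0656 to 0.00632 for *Spp1*, −0.0306 to 0.18 for *Esrrb* and −0.00763 to 0.24 for *Rbfox3* at ZT20 against ZT8, and from −0.0142 to 0.26 for *Prkcd* at ZT16 against ZT8. Precision was limited by 3 animals per time point and by 1 input library, and for *Htr1d* and *Wnt7a* by counts as low as 57 and 60 in a library.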
